A study of Mus musculus with 9 samples.

Results

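The Notch receptors and ligands measured here were 10 genes of the mouse Notch pathway: the receptors Notch1, Notch2 and Notch3, the ligands Dll1, Dll3, Jag1 and Jag2, the receptor glycosyltransferase Lfng, the inhibitor Numb and the DNA-binding factor Rbpj. They were picked by gene symbol from the 55704 genes of the deposited expression table, and each symbol matched 1 row. All 10 were among the 20207 genes with enough signal to be tested. The samples were neural stem cells (NSCs) from the subventricular zone (SVZ), the stem cell niche along the lateral ventricles, of wild-type C57BL/6 mice aged 8 to 9 weeks, and 1 isolation pooled cells of 2 female and 2 male mice. The cells had been passaged at least 3 times as floating spheres and were then plated in an adherent culture. The bFGF/EGF group (n = 3 libraries) was collected after 16 to 18 h in medium with both mitogens, which counted as day 0. In the bFGF/BMP4 group (n = 3) EGF was exchanged for BMP4, and in the BMP4 group (n = 3) both mitogens were exchanged for BMP4, each for 6 days and with each factor at 20 ng/mL. Both day 6 groups were compared with the same 3 bFGF/EGF libraries, so these comparisons share their controls and include the time in culture as well as the change of factors. Only the comparison of BMP4 with bFGF/BMP4 holds the day fixed, and it differs by the presence of bFGF. The labels call the samples biological replicas but do not tie them to separate isolations, so the p-values measure the spread between these libraries.

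Notch receptors are cell surface proteins that bind Delta-like (Dll) and Jagged (Jag) ligands on neighbouring cells. Binding leads to cleavage of the receptor, and its freed intracellular domain enters the nucleus, joins the DNA-binding protein RBPJ and switches on repressor genes of the Hes and Hey families. In the adult SVZ this pathway is known for keeping NSCs undifferentiated, and signals through different receptors have been tied to the quiescent and to the dividing state. BMP4, a ligand of the SMAD pathway, holds NSCs in quiescence in culture, and the comparison asks how Notch pathway transcripts stand in NSCs that receive BMP4 with or without the mitogen bFGF.

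Levels are given in FPKM, a fragment number divided by the length of the gene and the size of the library, which allows levels of different genes to be set side by side. By the whole fragment numbers that the values contain, each library held between 15914944 and 17476138 fragments on genes. All 8 NSC markers examined were detected in every group. They summed to 1690 to 1780 FPKM in the bFGF/EGF libraries, 672 to 777 FPKM in bFGF/BMP4 and 1450 to 1910 FPKM in BMP4. By the test described below, 1 was called higher and 4 lower in bFGF/BMP4 than in bFGF/EGF. In BMP4 3 were called higher and 1 lower, and the shares of all genes called follow below. Nes fell from a mean of 151 FPKM to 3.55 and 15.8 FPKM, and Sox2 had means of 167, 137 and 137 FPKM. The 8 astrocyte markers summed to 178 to 243, 675 to 772 and 3690 to 4570 FPKM, and 7 of the 8 rose in each day 6 group. The other, Aldh1l1, fell from a mean of 135 FPKM to 24.2 and 58.1 FPKM. Gfap, the astrocyte filament that quiescent NSCs also make, stood between 0.06 and 0.134 FPKM in the bFGF/EGF libraries, between 16.8 and 21.5 FPKM in the bFGF/BMP4 libraries and between 2180 and 3040 FPKM in the BMP4 libraries. The 6 ependymal markers summed to 7.22 to 12, 10.8 to 11.8 and 56.8 to 66.9 FPKM, with Tmem212 at 0 in every library, and the 4 tested all rose in BMP4. The 8 neuroblast and neuron markers summed to 77.9 to 93.7, 55.9 to 62.0 and 158 to 232 FPKM. Most of the BMP4 sum came from Tubb3, with a mean of 145 FPKM. Of the 7 tested, 4 were higher in BMP4 than in bFGF/BMP4 and 1, Rbfox3, was lower (means of 1.57 and 0.522 FPKM). Map2 had means of 56.2, 30.5 and 34.1 FPKM. The part of these marker changes in the Notch pathway values was not tested. In bulk RNA, fewer cells of a type and less RNA per cell cannot be told apart. Replicate 2 of the BMP4 group stood apart by transcript length: its 2175 genes with 8000 or more exon bases lay 0.28 below their group mean on the log2 scale at the median, and its 2884 genes with fewer than 3000 bases lay 0.35 above. Replicate 2 of the bFGF/EGF group leaned the same way, with medians of -0.16 and 0.25. Notch1 (14232 exon bases), Notch2 (11264) and Notch3 (9009) belong to the long genes, so their BMP4 values are also given without replicate 2 of BMP4. Rbpj (12849) is long as well. Numb has 8277 exon bases in the annotation, but its FPKM values correspond to a length of 3917 bases. Lfng (2530) is short, and both replicate 2 libraries were the highest of their groups for it (145 and 48.9 FPKM). With any 1 library left out, the log2 fold changes in BMP4 compared with bFGF/EGF were -0.47 to -0.36 for Rbpj, 0.45 to 0.67 for Numb and -1.5 to -1.08 for Lfng.

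Differences were tested with limma on log2(FPKM + 0.1) across all genes, and a gene was called at a Benjamini-Hochberg adjusted p of at most 0.05 together with a fold of at least 2. All fold changes below are on this log2 scale, which understates changes of low genes. In bFGF/BMP4 compared with bFGF/EGF, 4 of the 10 genes were called, with Notch3 and Jag1 higher and Dll1 and Dll3 lower. In that comparison 30.6% of all genes tested were called, 16.5% higher and 14.1% lower. In BMP4 compared with bFGF/EGF, 5 of the 10 were called, with Notch3 higher and Dll1, Dll3, Jag1 and Lfng lower, against 36.6% of all genes (21.3% higher and 15.4% lower). Between the day 6 groups, BMP4 compared with bFGF/BMP4, 4 of the 10 were called, with Jag2 higher and Dll1, Jag1 and Lfng lower, against 13.5% of all genes (8.41% higher and 5.14% lower). The shares called in the comparisons with bFGF/EGF were thus near those of all genes, and the share in the comparison of the day 6 groups was above it. The last count rested on single libraries: it was 2 of 10 without replicate 3 of bFGF/BMP4. The median log2 fold change of the 10 genes was 0.03, -0.19 and 0 in these comparisons, and that of all genes was 0.06, 0.10 and 0.

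**Figure D1:**
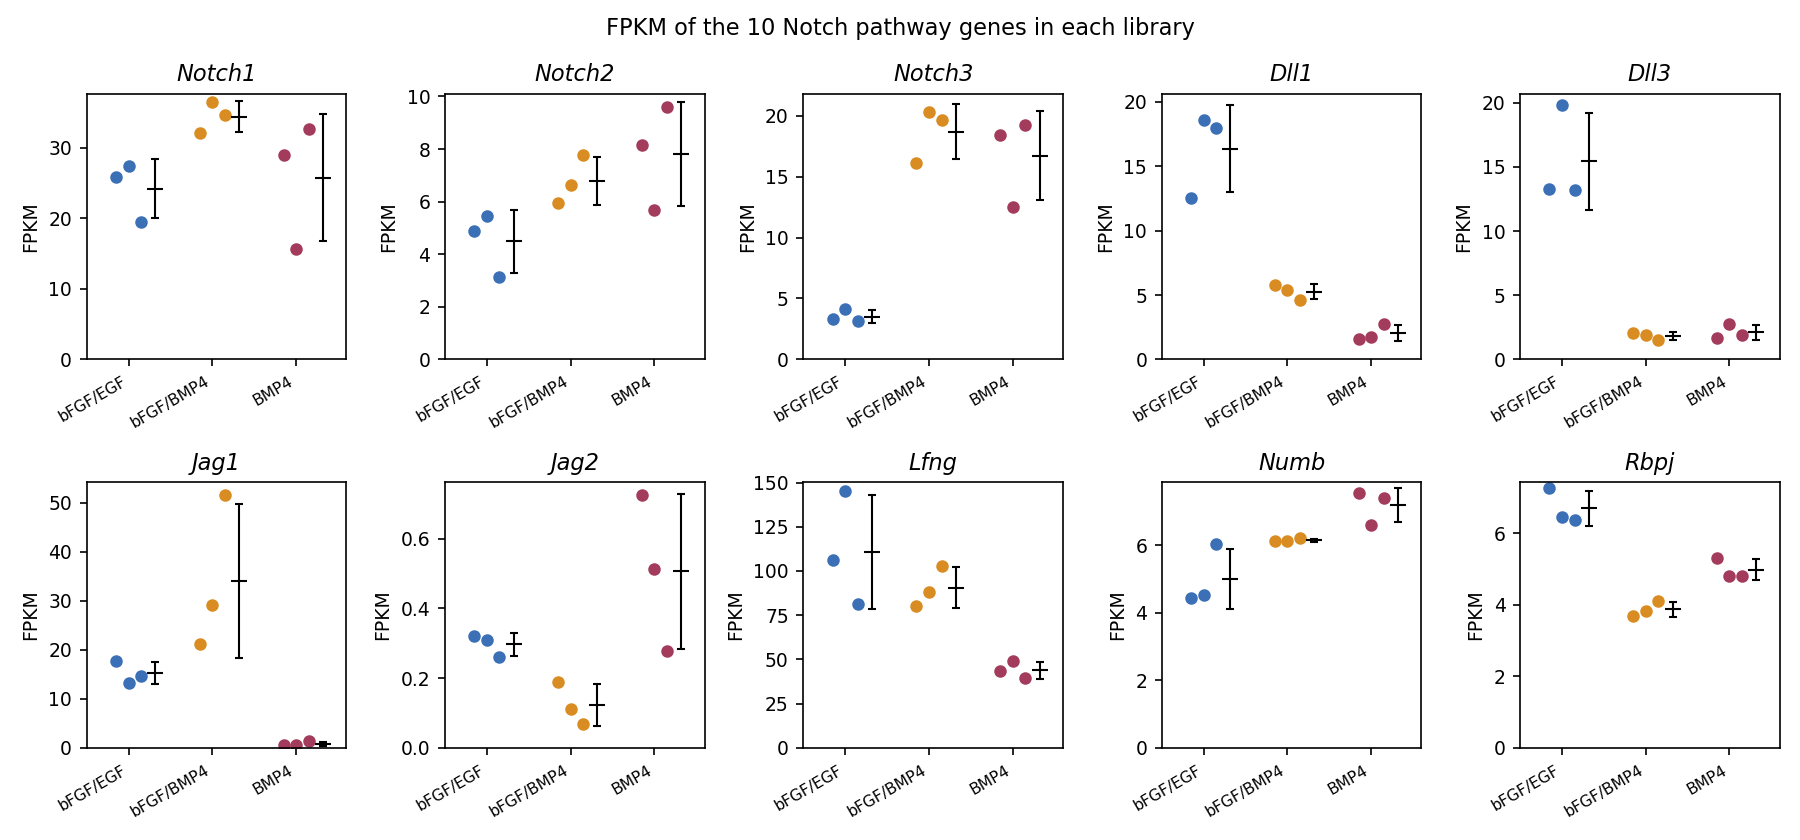
FPKM of the 10 genes in each library (points), with the mean and SD of the 3 libraries of each group (black marks and bars), each panel on its own linear axis from 0. Notch3 is higher and Dll1 and Dll3 are lower in every day 6 library than in any bFGF/EGF library, and Jag1 lies between 13.3 and 51.7 FPKM in the libraries with bFGF and at 1.37 FPKM or less in the BMP4 libraries.

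Of the receptors, Notch3 changed most. Notch3 (chr17:32339794-32385893, minus strand of GRCm39) is the receptor best known from vascular mural cells and is also made by SVZ stem cells. Its level was 3.30, 4.10 and 3.16 FPKM in the bFGF/EGF libraries, 16.1, 20.3 and 19.6 FPKM in the bFGF/BMP4 libraries and 18.4, 12.5 and 19.2 FPKM in the BMP4 libraries. Every day 6 library was above every bFGF/EGF library, and the day 6 groups overlapped. Notch3 rose by 2.38 on the log2 scale in bFGF/BMP4 (SE 0.18, adjusted p = 5.4e-06, a 5.31-fold higher mean) and by 2.20 in BMP4 (SE 0.18, adjusted p = 5.8e-06, 4.74-fold). The day 6 groups differed by -0.18, with a 95% interval from -0.59 to 0.23 (adjusted p = 0.56), and by 0.02 without replicate 2 of the BMP4 group, where the rise in BMP4 was 2.39. The 6 mural cell markers examined also moved with the groups: they summed to 0.158 to 0.275 FPKM in the bFGF/EGF libraries, 0.629 to 0.915 in bFGF/BMP4 and 1.22 to 1.87 in BMP4. Kcnj8 was at 0 in all bFGF/EGF and bFGF/BMP4 libraries and Abcc9 in all bFGF/EGF libraries, and 2 of the 6 markers had enough signal for a test. Their part in the rise of Notch3 was not tested.

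Notch1 (chr2:26347915-26406675, minus strand) was the receptor with the highest level in each group. The bFGF/EGF libraries held it at 25.8, 27.4 and 19.4 FPKM, the bFGF/BMP4 libraries at 32.1, 36.5 and 34.6 FPKM and the BMP4 libraries at 29.0, 15.6 and 32.6 FPKM. The bFGF/BMP4 libraries were the higher ones, without overlap with bFGF/EGF, and the BMP4 libraries ran from below the lowest bFGF/EGF library to just above the lowest bFGF/BMP4 library. No difference of Notch1 passed the test: the log2 fold change was 0.52 in bFGF/BMP4 (95% interval -0.04 to 1.08, adjusted p = 0.11) and 0.04 in BMP4 (-0.52 to 0.59, adjusted p = 0.92), and BMP4 differed from bFGF/BMP4 by -0.48 (-1.04 to 0.07, adjusted p = 0.22). Without replicate 2 of the BMP4 group the last of these was -0.16, the BMP4 value was 0.36 and the bFGF/BMP4 value of 0.52 had an adjusted p of 0.014, and the sign of the BMP4 value also depended on the scaling of the libraries. The annotation places 14.0% of the exon bases of Notch1 under a noncoding gene of the opposite strand, 0610009E02Rik, whose mean was 0.223, 0.361 and 0.715 FPKM.

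Notch2 (chr3:97920800-98057677, plus strand), the receptor tied in mouse to quiescent SVZ stem cells, was measured at 4.88, 5.45 and 3.15 FPKM in bFGF/EGF, 5.94, 6.63 and 7.76 in bFGF/BMP4 and 8.15, 5.70 and 9.59 in BMP4. The groups stood in that order by their means of 4.49 ± 1.20, 6.78 ± 0.92 and 7.82 ± 1.97 FPKM (SD, n = 3). BMP4 differed from bFGF/EGF by 0.79 (SE 0.24, adjusted p = 0.018), which passed the p-value but not the fold threshold. Without replicate 2 of BMP4 this value was 1.00 (adjusted p = 0.0076), at the fold threshold. The value for bFGF/BMP4 was 0.61 (adjusted p = 0.059), and the day 6 groups differed by 0.18 (95% interval -0.36 to 0.72). Summed with the low Notch4, the receptors reached 25.8 to 37.1 FPKM in the bFGF/EGF libraries, 54.6 to 64.0 in bFGF/BMP4 and 34.3 to 61.7 in BMP4, where replicate 2 was the lowest. Notch1 made up 74.8% ± 0.941 of this sum with bFGF/EGF, 57.1% ± 1.70 with bFGF/BMP4 and 50.0% ± 3.99 with BMP4 alone (SD, n = 3). The share of Notch3 was 11% ± 1.27, 30.9% ± 1.18 and 33.4% ± 2.67 (SD, n = 3). In replicate 2 of BMP4 the shares were 45.5% for Notch1 and 36.4% for Notch3, against 51.8% and 52.9% for Notch1 and 32.9% and 31.1% for Notch3 in the other two libraries.

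Of the ligands, Jag1 separated the groups most. Jag1 (chr2:136923373-136958693, minus strand), a Jagged ligand made by niche cells and NSCs, had levels of 17.8, 13.3 and 14.7 FPKM in the bFGF/EGF libraries. It was at 21.3, 29.2 and 51.7 FPKM in the bFGF/BMP4 libraries and at 0.497, 0.583 and 1.37 FPKM in the BMP4 libraries, the last from 47 to 132 fragments. No groups overlapped. Jag1 fell by 5.24 on the log2 scale in BMP4 compared with bFGF/BMP4 (SE 0.37, 95% interval -6.08 to -4.40, adjusted p = 1.2e-05), a 41.7-fold lower mean. Compared with bFGF/EGF it fell by 4.18 in BMP4 (adjusted p = 8.9e-06, 18.7-fold). The rise in bFGF/BMP4 was much smaller at 1.06 (SE 0.37, adjusted p = 0.039), and its size rested on replicate 3, the highest library: without it the value was 0.72 (adjusted p = 0.15). This call was also lost without any 1 of the 3 bFGF/EGF libraries, without replicate 2 of bFGF/BMP4 or without replicate 2 of BMP4, with adjusted p between 0.053 and 0.12. All 3 bFGF/BMP4 libraries were above all 3 bFGF/EGF libraries.

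Dll1 (chr17:15587276-15597134, minus strand), a Delta-like ligand that activates Notch on the neighbouring cell, stepped down over the groups. It was at 12.5, 18.6 and 18.0 FPKM in bFGF/EGF, at 5.80, 5.36 and 4.64 in bFGF/BMP4 and at 1.58, 1.76 and 2.74 in BMP4. No groups overlapped, and each step passed the test. Dll1 fell by 1.60 in bFGF/BMP4 (SE 0.22, adjusted p = 0.00024) and by 2.97 in BMP4 (SE 0.22, adjusted p = 3e-06, an 8.09-fold lower mean), and BMP4 was lower than bFGF/BMP4 by 1.37 (SE 0.22, adjusted p = 0.0017). The annotation places 27.6% of its exon bases under Fam120b of the opposite strand, which was at 4.05, 4.46 and 4.81 FPKM on average. Dll1 has 4960 exon bases in this annotation, but its FPKM values correspond to a length of 4219 bases, so the shared bases may not all have been counted. The part of this overlap in the values of Dll1 was not tested.

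Dll3 (chr7:27992978-28001673, minus strand) is a divergent Delta-like protein that stays largely inside the cell and is known to inhibit Notch there. It was at 13.3, 19.8 and 13.2 FPKM in bFGF/EGF, at 2.07, 1.92 and 1.48 in bFGF/BMP4 and at 1.69, 2.73 and 1.89 in BMP4. Both day 6 groups were low and overlapped each other. Dll3 fell by 3.00 in bFGF/BMP4 (SE 0.23, adjusted p = 5e-06, an 8.45-fold lower mean) and by 2.82 in BMP4 (SE 0.23, adjusted p = 4.9e-06), and the day 6 groups differed by 0.18 (95% interval -0.34 to 0.69, adjusted p = 0.65). Dll1 thus stood lower with BMP4 alone than with bFGF/BMP4, whereas for Dll3 no such difference passed the test. The oligodendrocyte lineage markers moved with the groups as well: 4 of the 6 tested of 8 fell in each day 6 group, and the summed level of the list was 461 to 671, 206 to 333 and 51.0 to 74.9 FPKM, most of it from Olig2. Sox10 was at 0 in all day 6 libraries. Their part in the falls of Dll1 and Dll3 was not tested.

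Jag2 (chr12:112871421-112893437, minus strand), the other Jagged ligand, was low throughout, with 7 to 82 fragments per library. It was at 0.321, 0.309 and 0.260 FPKM in bFGF/EGF, 0.188, 0.112 and 0.0683 in bFGF/BMP4 and 0.725, 0.514 and 0.279 in BMP4. The bFGF/BMP4 libraries were the lowest 3, and the BMP4 libraries overlapped with bFGF/EGF. Jag2 was higher in BMP4 than in bFGF/BMP4 by 1.41 (SE 0.37, adjusted p = 0.023), the opposite direction to Jag1. The call was lost when any 1 of replicates 2 and 3 of bFGF/BMP4 or replicates 1 and 2 of BMP4 was left out (adjusted p 0.062 to 0.079). The differences from bFGF/EGF did not pass the test, at -0.86 (adjusted p = 0.082) and 0.54 (adjusted p = 0.25).

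**Figure D2:**
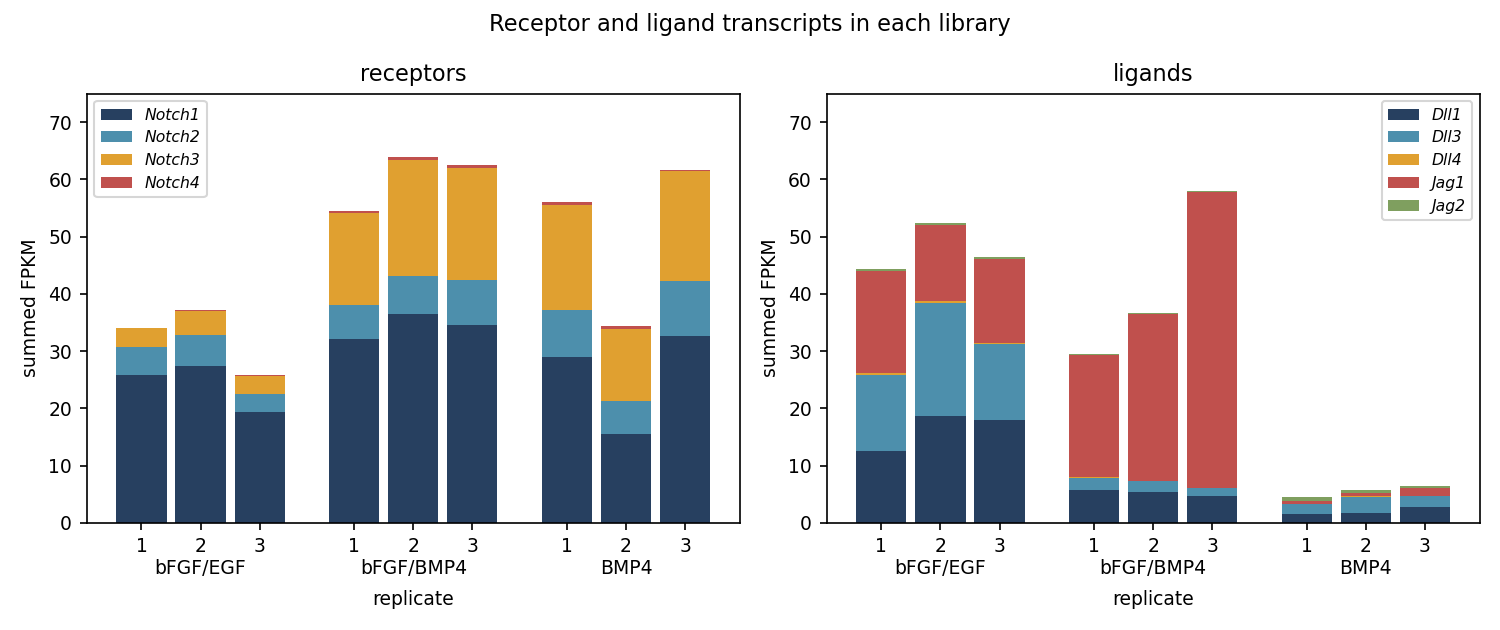
Summed FPKM of the 4 receptors (left) and of the 5 Delta-like and Jagged ligands (right) in each library, stacked by gene, on linear axes from 0. The ligand sum is 4.55 to 6.40 FPKM in the BMP4 libraries and at least 29.6 FPKM in all others, while no BMP4 library has a receptor sum below 34.3 FPKM.

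Added up with Dll4, the ligands reached 44.4 to 52.4 FPKM in the bFGF/EGF libraries, 29.6 to 57.9 in bFGF/BMP4 and 4.55 to 6.40 in BMP4. The BMP4 libraries were thus apart from all others in summed ligand level, and the groups with bFGF overlapped. The makeup of the sum differed more than its size between the groups with bFGF. In bFGF/EGF it was shared among Dll1 (34.2% ± 5.48), Jag1 (32.4% ± 7.39) and Dll3 (32% ± 5.07, SD, n = 3), whereas in bFGF/BMP4 Jag1 alone held 80.4% ± 8.57 (SD, n = 3). In BMP4, Jag1 held 14.2% ± 6.30, with Dll3 at 38.1% ± 9.16 and Dll1 at 36.1% ± 6.19 (SD, n = 3), of a sum with a mean of 5.55 FPKM.

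The promoters of Dll3, Jag1 and Lfng, which fell in BMP4 compared with bFGF/EGF, are shown with that of Notch3, which rose in the same libraries, so that their letters can be set beside the changes. Each is the 250 bases before the start of the annotated canonical transcript in GRCm39, read 5′ to 3′ on the strand of the gene. Capitals mark the letters GTGGGAA, the core that RBPJ binds, and CAGCTG, a form of the E-box that basic helix-loop-helix factors bind, each searched on both strands.
Dll3, chr7:28001674-28001923, minus strand: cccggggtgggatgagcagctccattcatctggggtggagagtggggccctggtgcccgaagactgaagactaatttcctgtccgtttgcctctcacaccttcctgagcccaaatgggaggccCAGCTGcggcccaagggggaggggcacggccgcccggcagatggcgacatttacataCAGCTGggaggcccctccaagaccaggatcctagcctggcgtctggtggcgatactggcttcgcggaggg
Lfng, chr5:140592825-140593074, plus strand: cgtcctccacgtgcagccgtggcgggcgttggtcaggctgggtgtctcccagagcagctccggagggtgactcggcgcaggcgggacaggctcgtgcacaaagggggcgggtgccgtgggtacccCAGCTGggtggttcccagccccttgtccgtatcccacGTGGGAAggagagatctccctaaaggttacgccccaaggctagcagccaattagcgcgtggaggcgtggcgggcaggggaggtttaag
Jag1, chr2:136958694-136958943, minus strand: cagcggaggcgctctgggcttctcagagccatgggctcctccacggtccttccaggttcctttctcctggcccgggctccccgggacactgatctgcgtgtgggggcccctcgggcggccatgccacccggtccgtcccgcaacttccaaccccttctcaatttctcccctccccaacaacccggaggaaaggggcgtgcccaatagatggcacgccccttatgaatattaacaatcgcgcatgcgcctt
Notch3, chr17:32385894-32386143, minus strand: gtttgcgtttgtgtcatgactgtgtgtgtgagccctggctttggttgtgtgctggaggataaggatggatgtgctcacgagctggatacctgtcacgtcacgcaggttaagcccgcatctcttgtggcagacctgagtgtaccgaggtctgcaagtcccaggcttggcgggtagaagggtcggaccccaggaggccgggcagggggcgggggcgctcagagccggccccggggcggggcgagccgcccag
Dll3 held the E-box letters with first bases 127 and 70 bases before the start. Lfng held them 125 bases before the start and the RBPJ letters 88 bases before it. The windows of Jag1 and Notch3 held neither set of letters. Of the 9 promoters examined, 1 held the RBPJ letters and 2 the E-box letters, against 5.48% and 11.9% of the 21770 promoters of protein-coding genes. The letters GGCGCC, a site of the BMP SMADs, were in none of the 9 windows and in 9.31% of all promoters.

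Lfng (chr5:140593075-140601300, plus strand) adds sugars to Notch receptors and so shifts their response from Jagged towards Delta-like ligands. It was the most abundant of the 10 genes in all groups by level, at 106, 145 and 81.1 FPKM in bFGF/EGF, 80.3, 88.4 and 103 in bFGF/BMP4 and 43.4, 48.9 and 39.3 in BMP4. The BMP4 libraries lay below all others, and the groups with bFGF overlapped. Lfng fell by 1.3 in BMP4 compared with bFGF/EGF (SE 0.20, adjusted p = 0.00036) and by 1.04 compared with bFGF/BMP4 (SE 0.20, adjusted p = 0.0043). The second value is near the fold threshold and became -0.94 without replicate 3 of bFGF/BMP4 and -0.97 without replicate 3 of BMP4, with adjusted p of 0.025 and 0.026. The groups with bFGF differed by -0.25 (95% interval -0.70 to 0.19, adjusted p = 0.33).

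Rbpj (chr5:53623494-53814704, plus strand), the DNA-binding partner of all Notch receptors, was at 7.26, 6.47 and 6.38 FPKM in bFGF/EGF, 3.69, 3.83 and 4.11 in bFGF/BMP4 and 5.32, 4.80 and 4.82 in BMP4. The groups did not overlap, with bFGF/BMP4 lowest. Its difference from bFGF/EGF passed the p-value but not the fold threshold in both day 6 groups, at -0.77 (SE 0.12, adjusted p = 0.00047) and -0.42 (SE 0.12, adjusted p = 0.013). BMP4 differed from bFGF/BMP4 by 0.35 (95% interval 0.08 to 0.62, adjusted p = 0.066). Numb (chr12:83840808-83968997, minus strand), an endocytic adaptor that inhibits Notch, was at 4.43, 4.54 and 6.04 FPKM in bFGF/EGF, 6.12, 6.12 and 6.21 in bFGF/BMP4 and 7.56, 6.62 and 7.41 in BMP4. It stood in this order of groups without overlap, with small steps of which BMP4 compared with bFGF/EGF passed the p-value but not the fold threshold (0.53, SE 0.14, adjusted p = 0.0096). The annotation places 27.4% of the exon bases of Numb under Papln of the opposite strand, which went from 7.20 to 0.391 and 0.127 FPKM, opposite in direction to Numb. Numb has 8277 exon bases in this annotation, but its FPKM values correspond to a length of 3917 bases. Whether the shared bases were counted for Numb is therefore not known. Whether fragments were counted by strand is not given in the sources used here.

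**Figure D3:**
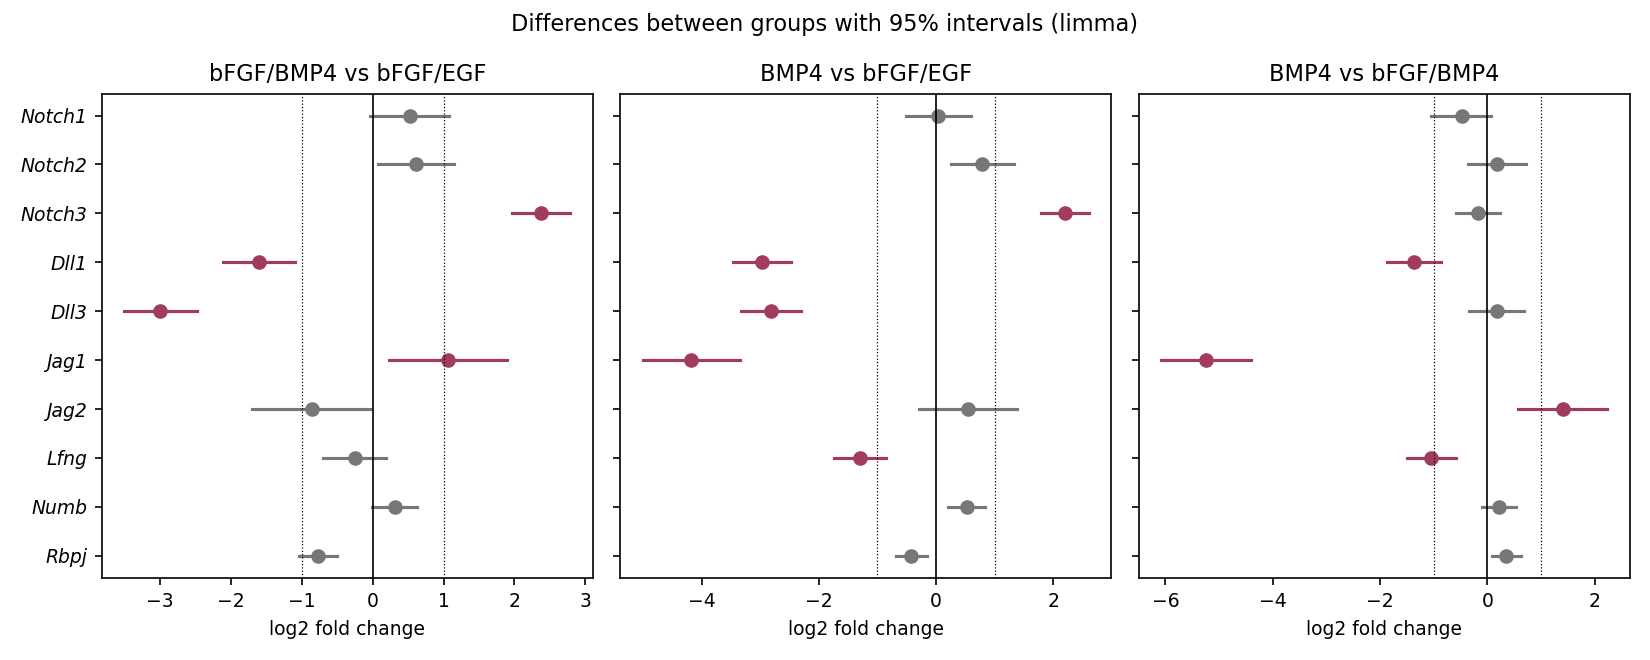
Log2 fold change of each of the 10 genes in the 3 comparisons from limma (points) with its 95% interval (lines), in colour where the gene was called and grey where it was not, with dotted lines at a fold of 2. Notch3 is above and Dll1 and Dll3 are below 0 in both comparisons with bFGF/EGF, and Jag1 reaches -5.24 in BMP4 compared with bFGF/BMP4.

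Without the fold threshold, 5, 8 and 4 of the 10 genes passed an adjusted p of at most 0.05 in the 3 comparisons, where 48.6%, 54.9% and 21.1% of all genes did. In the first these were the called genes and Rbpj, and in the second the called genes with Notch2, Numb and Rbpj. Notch1 was the only 1 of the 10 that passed in no comparison.

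The other receptors and ligands of the pathway were 5 genes of a list that completed the family. In the 3 comparisons 4, 4 and 2 of them were called, where 30.6%, 36.6% and 13.5% of all genes were. Dner, a transmembrane protein that binds Notch and is found in neurons and glia, was the most abundant of the 5, at 34.4, 43.1 and 35.8 FPKM in bFGF/EGF, 184, 179 and 202 in bFGF/BMP4 and 159, 154 and 151 in BMP4. It rose by 2.32 and 2.04 in the day 6 groups (SE 0.12 in both, adjusted p = 4.3e-07 and 6.6e-07), and the day 6 groups differed by -0.28 (adjusted p = 0.13). Dlk2, a Delta-like protein without the domain that activates Notch, was at 0.724, 0.928 and 0.884 FPKM in bFGF/EGF, 1.15, 1.97 and 2.03 in bFGF/BMP4 and 6.50, 9.12 and 5.42 in BMP4. It rose in BMP4 by 2.89 compared with bFGF/EGF (SE 0.26, adjusted p = 9.3e-06) and by 1.98 compared with bFGF/BMP4 (SE 0.26, adjusted p = 0.00046). Dlk1, its relative, fell in bFGF/BMP4 compared with bFGF/EGF by 1.76 (adjusted p = 0.0013) and was higher in BMP4 than in bFGF/BMP4 by 1.45 (adjusted p = 0.0097), with means of 0.823, 0.172 and 0.672 FPKM. Notch4 and Dll4, both known mainly from endothelium, stayed below 1 FPKM. Notch4 rose by 1.21 (adjusted p = 0.0076) and 1.09 (adjusted p = 0.011) from a mean of 0.140 FPKM, and the second call was lost without replicate 2 of BMP4 (0.94). Dll4 fell by 1.33 (adjusted p = 0.023) and 1.08 (adjusted p = 0.050) from 0.330 FPKM, with 1 to 10 fragments in each day 6 library, and these calls were lost without several of the libraries. The 6 endothelial markers summed to 0.192 to 0.285 FPKM in bFGF/EGF, 1.13 to 1.67 in bFGF/BMP4 and 2.80 to 4.11 in BMP4, with Kdr the highest at means of 0.152, 1.18 and 3.31 FPKM and Cldn5 at 0 in every library, and their part was not tested.

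**Figure D4:**
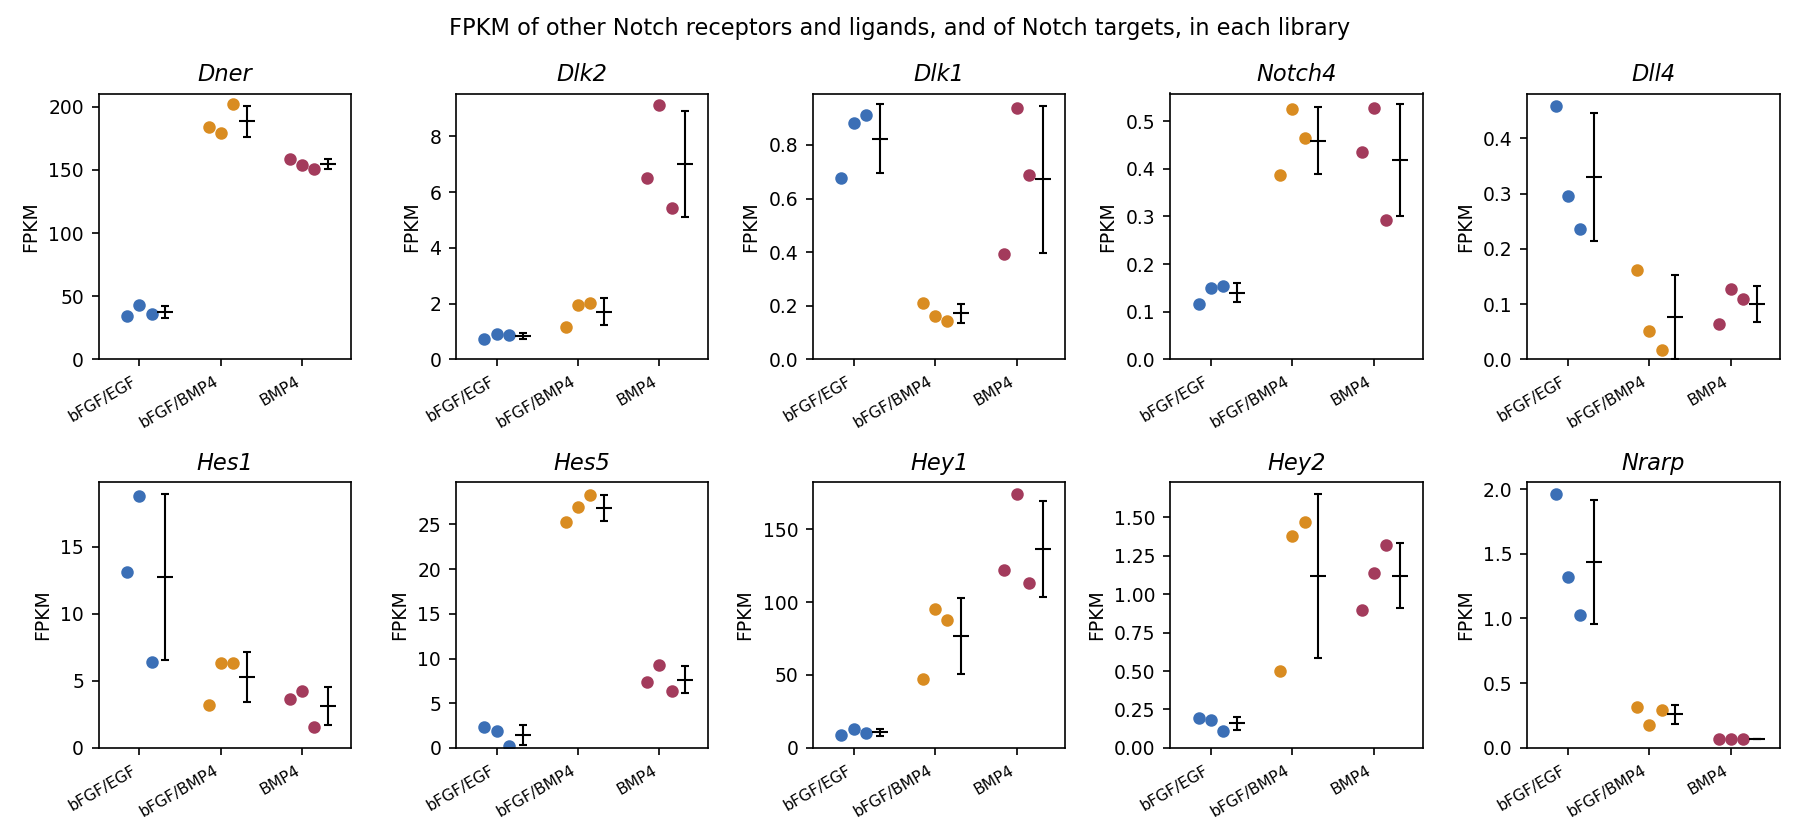
FPKM of the 5 other receptors and ligands (upper row) and of 5 Notch target genes (lower row) in each library (points), with the mean and SD of each group (black marks and bars), each panel on its own linear axis from 0. Dner and Hey1 are higher in every day 6 library than in any bFGF/EGF library, and Nrarp is between 0.0704 and 0.0717 FPKM in the BMP4 libraries.

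The genes that Notch is known to switch on did not move as 1 group. Hey1, a repressor of the Hey family that BMP signals are also known to induce, was at 8.61, 13.1 and 10.5 FPKM in bFGF/EGF, 47.0, 95.3 and 87.4 in bFGF/BMP4 and 122, 174 and 113 in BMP4. It rose by 2.78 (SE 0.28, adjusted p = 2.7e-05) and by 3.65 (SE 0.28, adjusted p = 3.1e-06), and BMP4 differed from bFGF/BMP4 by 0.87 (adjusted p = 0.051). Hey2 rose by 2.11 (adjusted p = 0.0012) and 2.23 (adjusted p = 0.0007) from a mean of 0.161 to 1.11 and 1.12 FPKM, calls that were lost with a pseudocount of 1 (0.83 and 0.87). Heyl was too low for the test, with 4 fragments over all bFGF/EGF libraries and 39 over all BMP4 libraries, a ratio of 10.1 with a 95% counting interval from 3.63 to 38.8.

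Hes5, the main Notch target of embryonic and adult NSCs, was at 2.29, 1.86 and 0.166 FPKM in bFGF/EGF, 25.3, 26.9 and 28.3 in bFGF/BMP4 and 7.32, 9.29 and 6.32 in BMP4. No groups overlapped, with bFGF/BMP4 highest, and replicate 3 of bFGF/EGF was far below its group. Hes5 rose by 4.65 in bFGF/BMP4 (SE 0.66, adjusted p = 0.00027) and by 2.83 in BMP4 (SE 0.66, adjusted p = 0.0047). Without replicate 3 of bFGF/EGF these values were 3.64 and 1.82, both still called. The day 6 groups differed by -1.82 (adjusted p = 0.084). The fit shares its spread over all groups, and without replicate 3 of bFGF/EGF the same difference had an adjusted p of 0.00016. Hes1, the oscillating repressor of the same family, was at 13.1, 18.8 and 6.42 FPKM in bFGF/EGF, 3.18, 6.34 and 6.37 in bFGF/BMP4 and 3.66, 4.21 and 1.55 in BMP4. It fell by 1.97 in BMP4 (SE 0.46, adjusted p = 0.0047), and the value for bFGF/BMP4 was -1.19 (adjusted p = 0.057). The latter was called under 5 of the alternatives that kept all libraries, such as limma-voom (-1.32, adjusted p = 0.0092). Nrarp, a direct target that feeds back on Notch, was at 1.96, 1.32 and 1.03 FPKM in bFGF/EGF and 0.313, 0.177 and 0.290 in bFGF/BMP4, and had 3 fragments in each BMP4 library. It fell by 2.07 in bFGF/BMP4 (adjusted p = 0.00046), and the ratio of bFGF/EGF to BMP4 by fragments was 20.1, with a 95% counting interval from 10.4 to 44.7. In both day 6 groups, Hes5, Hey1 and Hey2 were thus higher and Nrarp lower than in bFGF/EGF.

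The rest of the pathway was followed with lists sorted by role, 70 genes with those above, of which 68 could be tested. Compared with bFGF/EGF, 12 were called higher and 9 lower in bFGF/BMP4 and 13 and 13 in BMP4, and 3 were called higher and 4 lower in BMP4 compared with bFGF/BMP4. The 21, 26 and 7 called of 68 were near the shares of all genes called, 30.6%, 36.6% and 13.5%. The median log2 fold change of these genes was -0.01, -0.09 and -0.13. Of the 10 genes for receptor cleavage, 3 and 2 were called higher in the day 6 groups and none lower, where 16.5% and 21.3% of all genes were called higher. Ncstn, a further subunit of the cleaving complex, passed the p-value but not the fold threshold in the other direction in BMP4 (-0.47, adjusted p = 0.0032). Psen2, a catalytic subunit of the gamma-secretase that cuts Notch, rose from 1.64 FPKM to 4.54 and 6.74 (log2 fold changes 1.42 and 1.99, adjusted p = 0.00013 and 9.8e-06), and Aph1c, another subunit, rose from 0.252 to 0.738 and 0.746 FPKM. None of these 10 was called between the day 6 groups.

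**Figure D5:**
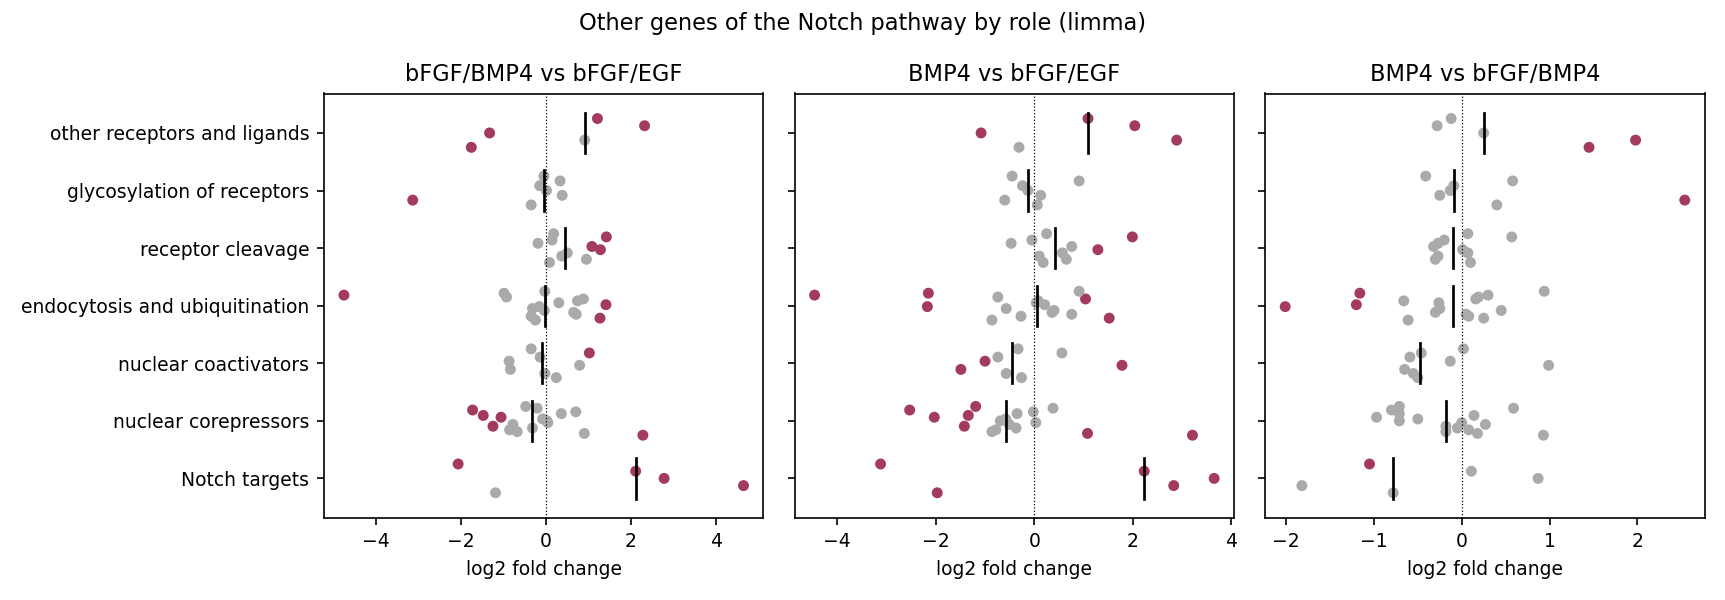
Log2 fold change of each tested gene of the 7 pathway lists in the 3 comparisons from limma (points, in colour where called and grey where not), with the list median as a black line. The points of most lists lie on both sides of 0, and those of the receptor cleavage list that were called all lie above it.

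Among the 16 genes of endocytosis and ubiquitination, 2 were called higher and 1 lower in bFGF/BMP4, and 2 higher and 3 lower in BMP4, each compared with bFGF/EGF. Of all genes tested, 16.5% were called higher and 14.1% lower in bFGF/BMP4, and 21.3% and 15.4% in BMP4. Neurl1a, a ubiquitin ligase that acts on Notch ligands, fell from 4.58 FPKM to 0.0715 and 0.115 (log2 fold changes -4.76 and -4.46, adjusted p = 9.2e-07 and 9.9e-07), with 8 to 21 fragments in the day 6 libraries. Epn2, an epsin that takes ligands into the cell, was at 64.0 and 58.9 FPKM in the groups with bFGF and at 14.1 in BMP4, where it fell by 2.17 compared with bFGF/EGF (adjusted p = 5.4e-06) while its difference from bFGF/BMP4 was -2.01 (adjusted p = 4.4e-05). Fbxw7, which marks the intracellular domain for breakdown, rose in bFGF/BMP4 from 6.53 to 17.6 FPKM (adjusted p = 0.00034) and was lower in BMP4, at 7.45 FPKM, than in bFGF/BMP4 (adjusted p = 0.0023). Epn2 was thus low in BMP4 only, like Jag1 and Lfng, and Fbxw7 high in bFGF/BMP4 only, by the calls of both comparisons of that group.

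Of the 7 glycosylation genes, Mfng, a relative of Lfng, was the only 1 called in any comparison: it fell from 1.67 to 0.0974 FPKM in bFGF/BMP4 (-3.14, adjusted p = 0.0002) and was at 1.05 FPKM in BMP4, above bFGF/BMP4 by 2.54 (adjusted p = 0.002). Of the 8 coactivators, 1 was called higher in bFGF/BMP4, Maml3 (0.216 to 0.540 FPKM, adjusted p = 0.037), a call that was lost under several alternatives. In BMP4 compared with bFGF/EGF, 1 coactivator was called higher and 2 lower. Kat2b, a histone acetyltransferase, rose from 5.30 to 18.4 FPKM (1.78, adjusted p = 1.2e-06) and its relative Kat2a fell from 27.5 to 9.80 FPKM (-1.49, adjusted p = 1.5e-05). Maml1 fell from 7.32 to 3.58 FPKM (-1, adjusted p = 0.0011), at the fold threshold. Of the 17 corepressors tested, 1 and 2 were called higher and 4 and 5 lower in the day 6 groups, and none between them. Of all genes tested, 16.5% and 21.3% were called higher and 14.1% and 15.4% lower in the day 6 groups, and 13.5% were called between them. Bend6, a partner of RBPJ that represses Notch targets in NSCs, rose from 1.27 to 6.54 and 12.7 FPKM (2.28 and 3.21, adjusted p = 4.8e-06 and 3.9e-07). Tle2, a Groucho corepressor that Hes proteins recruit, fell from 6.85 to 1.94 and 1.05 FPKM (-1.73 and -2.53, adjusted p = 0.00082 and 5.3e-05).

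The patterns of the 10 genes were set against those of 11212 protein-coding genes with a mean of at least 1 FPKM by Pearson's correlation of log2 values over the 9 libraries. These values are descriptions, because the libraries fall into 3 groups and share their depth and length profile within a library. Notch3 was most like Wdr81 (r = 0.996, means of 5.33, 19.1 and 16.4 FPKM) and Ptpn13 (0.996). Dll3 was most like Vcpkmt (0.997) and Upp1 (0.995), and Dll1 most like Hrh1 and Gal3st3 (0.986 for both). Jag1 was most like Slitrk2 (0.991) and Ltbp1 (0.99), the latter with means of 5.38, 11.9 and 0.538 FPKM. Jag2 was nearest to Rhou (0.957) and Glipr2 (0.953), which were also lowest in bFGF/BMP4. Lfng was most like Nrbp1 and Slc35b2 (0.986 for both), Numb most like Kdm7a (0.984) and Cspp1 (0.977), and Rbpj most like Gjc1 (0.986) and Serinc5 (0.984), which had their lowest means in bFGF/BMP4 as well. Notch1 was most like Dync1h1 (0.96) and Zfp592 (0.948), and Notch2 most like Mvb12b (0.959) and Rcan3 (0.943). Among the 10 genes themselves, Notch3 and Dll3 ran most opposite (r = -0.98), Jag1 and Jag2 had r = -0.85, and Jag1 and Lfng had r = 0.84.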

How the data were processed

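RNA-seq covered 9 libraries of mouse NSCs in 3 groups of 3. Per the labels' processing notes, the authors cleaned reads with fastp 0.19.7, aligned them to mm39 with HISAT2 2.0.5 and counted them with featureCounts 1.5.0-p3, and they deposited FPKM values. The program that made the FPKM values, the annotation release and the strand setting are not given in the sources used here. The study ran its own differential expression on counts. Because FPKM values are not counts, differential expression was tested here with limma 3.58.1 in R 4.3.3 (eBayes with its trend option) on log2(FPKM + 0.1), for every gene averaging 0.1 FPKM or more, with all 9 libraries in the fit and Benjamini-Hochberg adjustment over 20207 genes. A gene was called at the study's threshold, an adjusted p of at most 0.05 and a fold of at least 2.

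Whole fragment numbers were rebuilt from the FPKM values for all 30860 genes above 0 (within 0.02 fragments), 15914944 to 17476138 per library. The authors' library divisor was 0.917 to 1.071 times these totals. This ratio followed the groups, at 0.994 to 1.071 in the bFGF/EGF libraries and 0.917 to 0.968 in the day 6 libraries. A lower divisor raises all FPKM values of a library. Of the alternatives below, the TPM scale, median-ratio scaling and limma-voom do not depend on this divisor. Genes whose libraries in a group all held 3 fragments or fewer counted as undetected in that group. For such genes, ratios of fragments are given with 95% exact intervals that cover counting error only. Coordinates and promoters are from GRCm39 with GENCODE vM39, which held 54749 of 55414 Ensembl identifiers. For 34.4% of the genes compared, the gene length contained in the FPKM values equalled the exon length of this annotation. Shares of exon bases under other genes refer to this annotation only. The fit was tested on simulated data. The tables were made with Python 3.11.15 and pandas 2.3.3.

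The 10 genes, the pathway and marker lists and the tests were chosen with earlier results of these data known. Named genes were the 10, all genes of the lists of other receptors and ligands and of Notch targets, the 2 genes with the largest called change of each other pathway list in each comparison, and the 2 genes nearest in pattern to each of the 10. Markers came from the fixed lists. Ncstn, Maml1 and the genes of the opposite strand fell outside this rule and were chosen after their values were seen. The promoter of 1 of the 10 genes is not reported here. The alternatives were a pseudocount of 1, a minimum mean of 1 FPKM, no filter, the TPM scale, median-ratio scaling, limma-voom on the rebuilt fragments, a replicate block, the adjusted p alone, fits restricted to the groups under comparison, and each library left out in turn. Alternatives for the summed receptors and ligands were added after the data were seen.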

Additional observations from a re-analysis of the deposited data

How the results depend on the processing

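The numbers of all genes called, 6174, 7400 and 2738 for bFGF/BMP4 and BMP4 compared with bFGF/EGF and for BMP4 compared with bFGF/BMP4, moved to 3544, 4364 and 1449 with a pseudocount of 1 and to 9819, 11096 and 4271 with the adjusted p alone. The last was 1800 with a minimum mean of 1 FPKM. Of the 10 genes, 8 in place of 5 passed in BMP4 compared with bFGF/EGF with the adjusted p alone. With each library left out in turn, 3 to 4, 5 and 2 to 4 of the 10 were called, and 5740 to 6213, 7000 to 7381 and 2405 to 2719 of all genes. The lowest count, 2 of 10 in BMP4 compared with bFGF/BMP4, came without replicate 3 of bFGF/BMP4, where Jag2 (adjusted p = 0.079) and Lfng (-0.94) were not called.

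Over the alternatives for the 10 genes, 507 values kept their direction and side of the threshold, 17 lost the call, 5 gained it and 8 changed sign. Those that changed sign had not been called. For Notch1 in BMP4 compared with bFGF/EGF they were -0.05 on the TPM scale, -0.01 with median-ratio scaling and -0.06 with limma-voom, and -0.17 to 0.36 with a library left out. Notch3 was -0.29 to 0.02 and Dll3 -0.02 to 0.32 in BMP4 compared with bFGF/BMP4 with a library left out. In that comparison Aph1c was -0.05 on the TPM scale, and with a library left out Aph1c was -0.08 to 0.10, Hey2 -0.33 to 0.36 and Notch4 -0.28 to 0.06. The rise of Jag1 in bFGF/BMP4 was not called without a filter (adjusted p = 0.068), on the TPM scale (0.057) or with limma-voom (0.95 on the log2 scale). Jag2 in BMP4 compared with bFGF/BMP4 was 0.41 with a pseudocount of 1 and had an adjusted p of 0.052 in a fit of those groups alone. In bFGF/BMP4 compared with bFGF/EGF, Jag2 was called with limma-voom (-1.46, adjusted p = 0.022). Hes5 in BMP4 compared with bFGF/BMP4 was called with a pseudocount of 1 (-1.70, adjusted p = 0.0045), with limma-voom (-1.81, adjusted p = 0.00062) and in a fit of those groups alone (adjusted p = 0.001). Hes1 in bFGF/BMP4 compared with bFGF/EGF was called with a pseudocount of 1 (-1.06, adjusted p = 0.048), a minimum mean of 1 FPKM (0.036), the TPM scale (0.042), limma-voom (0.0092) and the replicate block (0.032). With a pseudocount of 1, calls of low genes were lost: in both day 6 groups compared with bFGF/EGF for Notch4 (0.35 and 0.31), Dll4 (-0.30 and -0.27), Hey2 (0.83 and 0.87) and Aph1c (0.47 and 0.48), in bFGF/BMP4 for Dlk1 (-0.64), Nrarp (-0.94) and Maml3 (0.34), and in BMP4 compared with bFGF/BMP4 for Dlk1 (0.50), Nrarp (-0.23) and Mfng (0.88). The cause of these changes was not tested.

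With the replicate number as a block, 4, 5 and 4 of the 10 genes and 6127, 7383 and 2612 of all genes were called. Deviations of same-numbered libraries from their group means had correlations from -0.084 to 0.125 across genes, so the numbers were not taken as pairs. With 3 libraries a group, the intervals of Notch1 in all comparisons included 0, and Jag2, Dll4, Heyl and Nrarp rested on few fragments.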
